A study of Arabidopsis thaliana with 42 samples.

Results

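The report concerns 168 of 24843 Arabidopsis thaliana loci: genes that rose in wild type leaves after infection, stayed lower in the chp60g sard1 double mutant, and were close to wild type in sid2. CPM is a locus's count divided by the total of its library and multiplied by 1000000, and L is the mean over the 3 libraries of a group of log2(CPM + 1). A gene was taken when L in infected wild type leaves was at least 2 above mock, at least 1 above infected chp60g sard1, and less than 0.5 away from infected sid2. Of 2341 loci that passed the first condition (9.42% of all loci), 628 also passed the second (26.8% of the 2341). Taken alone, the second condition held for 5.12% of all loci and the third for 68.0%. Of those 628, 306 were at least 1 lower in sid2 as well, 112 were 0.5 to 1 lower in sid2, and 42 were at least 0.5 higher in sid2, which leaves the 168.

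CBP60g and SARD1 are related transcription factors that are activated during immunity and switch on genes for salicylic acid and N-hydroxypipecolic acid, the signals of local and systemic resistance in leaves. ICS1 is the isochorismate synthase that starts the main route to salicylic acid, and sid2 mutants lack it, so genes that respond to salicylic acid itself are usually low in sid2. CBP60a is a relative of CBP60g that acts as a negative regulator of immunity.

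Plants were Col-0, 30 days old, in 7 genotypes: wild type, sid2, wrky70, cml46 cml47, cbp60a, chp60g sard1 (spelled as on the label) and cbp60a cbp60g sard1, here called the triple mutant. Leaves numbered between 6 and 8 were infiltrated either with Pseudomonas syringae pv. maculicola ES4326 (Pma), a bacterial leaf pathogen, at OD600 0.0002 in 5 mM magnesium sulfate, or with the magnesium sulfate alone (mock), and 2 leaves per sample were taken 24 h later. Smart-3SEQ, which counts 3' ends of messenger RNA, gave 42 libraries of 919335 to 2691069 counts, in 14 groups with 1 library from each of 3 experiments, so n = 3 throughout. The labels name no alleles, so it is not known whether the triple mutant carries the same cbp60g and sard1 alleles as chp60g sard1. In whole leaves, fewer cells of a type and less RNA per cell cannot be told apart.

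The mutated genes were read first, as a check of the labels. After Pma, mean CPM of ICS1 was 1.85 ± 1.08 (SD) in sid2 and 619 ± 196 in wild type, and of WRKY70 176 ± 74.2 in wrky70 and 2112 ± 277 in wild type. CBP60G was at 38.9 ± 14.2 in chp60g sard1, 28.4 ± 16.95 in the triple mutant and 295 ± 16.4 in wild type, and SARD1 at 11.1 ± 9.60, 11.5 ± 6.999 and 288 ± 29.6. CBP60A was at 23.2 ± 3.97 in cbp60a, 21.2 ± 2.97 in the triple mutant and 53.1 ± 15.6 in wild type. In cml46 cml47 the locus AT5G39670 was at 0.583 ± 0.539 and AT3G47480 at 279 ± 62.3, against 382 ± 135 and 786 ± 116 in wild type. Each labelled mutant was thus lower than wild type in the genes its label names, CBP60A with the smallest reduction. None of these 7 genes was among the 168. As a check of the tissue, 3 mesophyll genes summed to 30050 CPM or more in every mock library, and 2 root genes were at or near 0. The marker sums were not all stable under Pma. In wild type the mesophyll sum was 39780 to 41260 CPM in mock and 3044 to 3593 after Pma. For 3 epidermis genes it was 1002 to 1196 and 15.35 to 49.26, and for 3 phloem genes 368.2 to 450 and 372 to 505.5.

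The sequences before the start sites of 5 of the 168 genes are shown first because 4 of them make or move the defence signals and the fifth, AT1G72890, had the clearest loss of response. Each is the 250 bases before the annotated start, read 5′ to 3′ along the gene's strand from RefSeq, build TAIR10.1, with GAAATTT or its reverse complement AAATTTC in capitals. GAAATTT is a motif that CBP60g and SARD1 are known to bind.
FMO1 (chr1:6653196-6653445, minus strand): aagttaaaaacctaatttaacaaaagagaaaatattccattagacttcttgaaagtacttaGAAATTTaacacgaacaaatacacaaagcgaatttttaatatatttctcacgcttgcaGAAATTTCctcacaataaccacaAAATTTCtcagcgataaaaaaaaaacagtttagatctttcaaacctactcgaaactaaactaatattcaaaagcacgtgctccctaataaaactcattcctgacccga
ALD1 (chr2:5768167-5768416, plus strand): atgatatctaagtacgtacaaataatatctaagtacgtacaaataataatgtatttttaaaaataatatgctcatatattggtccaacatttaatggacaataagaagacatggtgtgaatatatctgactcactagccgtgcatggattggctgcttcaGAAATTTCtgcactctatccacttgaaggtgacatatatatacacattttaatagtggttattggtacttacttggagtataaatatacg
PBS3 (chr5:4267206-4267455, plus strand): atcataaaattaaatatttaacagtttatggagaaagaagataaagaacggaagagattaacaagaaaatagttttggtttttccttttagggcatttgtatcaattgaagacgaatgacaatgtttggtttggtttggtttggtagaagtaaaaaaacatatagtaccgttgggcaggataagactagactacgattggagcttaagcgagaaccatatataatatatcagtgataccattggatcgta
EDS5 (chr4:18185187-18185436, plus strand): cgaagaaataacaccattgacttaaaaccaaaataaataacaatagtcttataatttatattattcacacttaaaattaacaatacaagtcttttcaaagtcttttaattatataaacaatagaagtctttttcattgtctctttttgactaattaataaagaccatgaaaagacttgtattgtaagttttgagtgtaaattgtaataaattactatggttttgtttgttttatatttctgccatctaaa
AT1G72890 (chr1:27429666-27429915, plus strand): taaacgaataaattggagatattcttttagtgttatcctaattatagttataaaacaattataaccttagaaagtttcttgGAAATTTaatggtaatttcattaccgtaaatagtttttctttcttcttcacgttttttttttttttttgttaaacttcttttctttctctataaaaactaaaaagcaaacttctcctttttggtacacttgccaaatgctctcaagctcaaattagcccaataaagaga

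FMO1 holds 4 matches counted over both strands, at -189, -131, -130 and -108 bases from the start, of which the middle pair is the palindrome GAAATTTC read on each strand. ALD1 holds the same palindrome, at -90 and -89, AT1G72890 a single match at -169, and PBS3 and EDS5 none in this window. In windows of 300 bases (250 before the start to 50 after it), GAAATTT on either strand was present in 36 of the 168 genes (21.4%), in 16.1% of the 2173 other genes that rose in wild type, and in 14.4% of 24691 promoters of all loci found. Among the 306 genes lower in both mutants the share was 15.4%. The W-box core TTGAC, the site of WRKY factors, was in 62.5% of the 168, 61.3% of the other risen genes and 50.7% of all promoters. TGACG, the core of TGA factor sites, was in 33.3%, 26.5% and 23.3%, and can overlap TTGAC. The G-box CACGTG was in 8.33%, 10.4% and 8.14%. These are counts of letters, given without a test.

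The choice of the genes fixed their values in wild type, chp60g sard1 and sid2, which are therefore given as a description only. The rise in wild type ran from 2.04 to 9.92 with a median of 3.53 (difference in L). The shortfall in infected chp60g sard1 ran from 1.01 to 5.14 with a median of 1.39, and in sid2 from -0.48 to 0.50 with a median of 0.12. In infected wild type the mean level ran from 3.38 to 2280 CPM (median 53.0), 62 genes had at least 100 CPM and 23 had under 10, and 32 had no count in any wild type mock library. Just inside the first condition were GLYI4, ABCC6 and KAT1 (2.04, 2.05 and 2.06) and just outside MAF4, AT1G66250 and AT4G34380 (1.99, 1.98 and 1.96). At the second, AT5G19440, AT1G68440 and CYP89A5 were at 1.01 and AOX1D, UMAMIT29 and CYP81H1 at 0.997, 0.990 and 0.988. At the third, BRL1, AT2G34610 and UGE5 were inside at 0.497, 0.494 and 0.488, and AIR3, AT2G25297 and AT4G26990 outside at 0.502, 0.507 and 0.508.

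Membership depends on the scaling. L uses column sums, and library sizes after TMM (trimmed mean of M values, which scales libraries on the bulk of genes) lower both the chp60g sard1 and the sid2 shortfall by 0.25. They also lower the rise in wild type by 0.40. On that scale 124 genes meet the rule, and 84 of them are among the 168 (50% of the 168, 67.7% of the 124). The genes lie on all 5 chromosomes, 98 have a symbol in the reference, and 47 overlap another annotated gene, so their counts may hold reads of the neighbour. EDS5, UGT74F2, SAG21, FER1, EDA9 and ABCC7 are among these. SBT3.5 with AT1G32950 and ABCC6 with ABCC7 are neighbouring relatives.

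**Figure D1:**
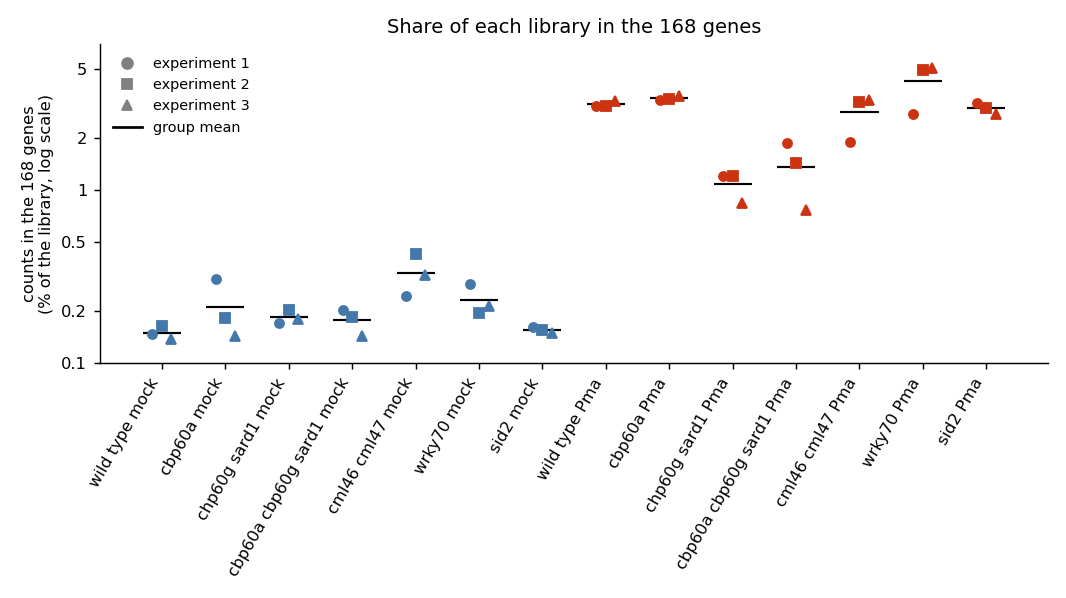
Share of each library's counts in the 168 genes (% of the library, log scale), 1 point per library, 14 groups, shapes for the 3 experiments and bars for group means. Mock libraries sit below 0.5%, infected wild type, cbp60a and sid2 libraries near 3%, and both lines without cbp60g and sard1 between 0.768% and 1.88%.

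Together the 168 genes took 0.150 ± 0.013% of counts in wild type mock and 3.14 ± 0.13% in infected wild type (mean ± SD). In groups that the choice did not use, the share after Pma was 3.40 ± 0.097% in cbp60a, 2.83 ± 0.80% in cml46 cml47, 4.27 ± 1.32% in wrky70 and 1.36 ± 0.56% in the triple mutant. The triple mutant libraries held 1.88%, 1.43% and 0.768% in experiments 1, 2 and 3, and the cbp60a libraries 3.34%, 3.35% and 3.51%, so the groups did not overlap. In mock leaves, cml46 cml47 stood highest at 0.331 ± 0.090%.

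The test on libraries that the choice did not use compares infected leaves of the triple mutant with infected cbp60a. The triple mutant differs from cbp60a by cbp60g and sard1, and neither group entered the rule. All groups came from the same 3 experiments, however, and libraries of an experiment deviated together. The test is thus separate from the choice in its libraries, not in its experiments. All log2 fold changes below are from edgeR's quasi-likelihood fit on TMM-scaled counts, with Benjamini-Hochberg adjustment over 15161 tested genes and a threshold of 0.05. Of the 168 genes, 162 passed the filter on low counts. RCI3, AT2G30840, AT2G34610, AT3G53065, ARGOS and AT4G09100 did not. Of the 162, 69 were lower in the triple mutant and 0 were higher, where 4.0% of all tested genes were lower and 9.95% higher. For the 0, DESeq2 gave 0 as well. At an unadjusted edgeR p under 0.05, 112 of 162 were lower (8.94% of all tested genes) and 0 higher (17.3%). All 162 had a negative log2 fold change, with a median of -1.03 (quartiles -1.58 and -0.69), against a median of 0.08 over all tested genes. In 111 of the 162 all 3 triple mutant libraries lay below all 3 cbp60a libraries, against 14.6% of all tested genes, and in 0 did they all lie above, against 7.65%.

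The difference varied between experiments. Triple mutant against cbp60a within an experiment, 153, 158 and 160 of the 162 genes were lower in experiments 1, 2 and 3, and at the median the triple mutant held 54.6%, 45.9% and 25.5% of the cbp60a level (log2 of CPM + 1). The number called was 35 without experiment 2, 26 without experiment 3, and 36 without the triple mutant's library of experiment 3 alone. It was 89 without experiment 1 and 46 without the experiment block. On column sums, 100 of the 162 were called lower, and the share of lower among all calls of the comparison was 55.8% against 28.7% with TMM. Of the 84 genes that meet the rule on both scales, 81 were tested and 44 called, with a median of -1.41. Of the 84 that meet it on column sums only, 81 were tested and 25 called, with a median of -0.85. Markers of mesophyll moved with the comparison: the 3 genes summed to 1920 to 2791 CPM in infected cbp60a and to 5340 to 14300 in the infected triple mutant. None of these 3 was at 0. The epidermis markers summed to 14.56 to 21.85 CPM in infected cbp60a and 10.71 to 164.1 in the triple mutant. The phloem markers summed to 364.3 to 475.2 and 372.7 to 492.3. The part of these markers in the result was not tested.

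**Figure D2:**
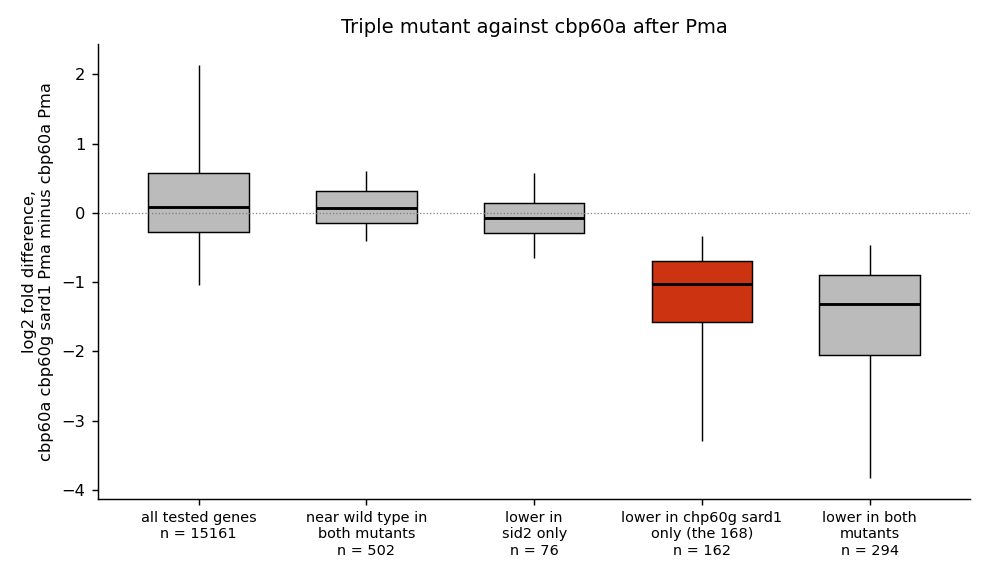
Log2 fold difference of the infected triple mutant against infected cbp60a for genes grouped by their behaviour in wild type, chp60g sard1 and sid2, beside all tested genes. Lines mark medians, boxes quartiles and whiskers the 5th and 95th percentiles. The 168 genes (162 tested) have a median of -1.03, genes lower in sid2 only of -0.07, and genes near wild type in both mutants of 0.07.

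The other genes that rose in wild type give the contrast. Genes at least 1 lower in sid2 but close to wild type in chp60g sard1 (79, 76 tested) had 0 lower and 0 higher in the triple mutant and a median of -0.07. Genes near wild type in both mutants (503, 502 tested) had 0 lower and 7 higher with a median of 0.07, and the 306 genes low in both mutants (294 tested) had 154 lower with a median of -1.31. These sets, too, were formed from wild type, chp60g sard1 and sid2 libraries alone, and the differences between the sets were not tested.

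Of the members, 4 belong to the synthesis of salicylic acid and N-hydroxypipecolic acid. They come from a list of 8 genes, which also holds the glucosyltransferase UGT76B1. ALD1 is the aminotransferase that starts pipecolic acid synthesis and FMO1 hydroxylates pipecolic acid to the active signal. EDS5 carries isochorismate out of the chloroplast, and PBS3 joins it to glutamate on the way to salicylic acid. Of these 4, 2 were called lower in the triple mutant, where 69 of all 162 tested members and 4.0% of all tested genes were.

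FMO1 (AT1G19250) was at 1055, 1024 and 837 CPM in infected wild type in experiments 1 to 3 and at 0 in every wild type mock library. Infected sid2 held 1177, 1087 and 1217 CPM and infected chp60g sard1 74.0, 61.2 and 31.7. In infected cbp60a FMO1 was at 1106, 938 and 629 CPM, and in the infected triple mutant at 120.1, 76.3 and 24.6. Every triple mutant library lay below every cbp60a library, and the log2 fold change was -3.43 ± 0.57 (SE, edgeR adjusted p = 6.82e-05). In the triple mutant's mock libraries FMO1 was at 1.48, 0.637 and 0 CPM, so the infected libraries, though low, lay above their own mock.

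PBS3 (AT5G13320) held 762, 1028 and 1420.5 CPM in infected cbp60a and 219.9, 204 and 231 in the infected triple mutant. The groups were apart, with a log2 fold change of -2.02 ± 0.46 (edgeR adjusted p = 0.00227), and the adjusted p was 0.0648 without experiment 2 and 0.0687 without experiment 3. Its infected chp60g sard1 libraries (229.6, 301 and 267 CPM) and sid2 libraries (975, 817 and 1003 CPM) were used by the rule.

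ALD1 (AT2G13810) held 1010.4, 1168 and 1458 CPM in infected cbp60a and 388, 431 and 168 in the infected triple mutant. The libraries did not overlap, but the log2 fold change of -1.62 ± 0.61 did not pass (edgeR adjusted p = 0.0731). Without experiment 1, in which the gap was the smallest, it passed at -1.86 (edgeR adjusted p = 0.0106), and it also passed without the filter on low counts (0.0278) and on column sums (0.0418). EDS5 (AT4G39030) held 621, 888 and 816 CPM in infected cbp60a and 271, 344 and 208 in the triple mutant. These were also apart, at -1.27 ± 0.54 (edgeR adjusted p = 0.123), and passed without experiment 1 at -1.34 (adjusted p = 0.0228).

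The other genes of this list were not members. ICS1 itself is mutated in sid2, and AT5G52810 and UGT76B1 were also lower in sid2, by 1.74 and 6.15 in L, while EPS1 was 0.58 higher there. Over the whole list of 8, 5 were lower and 0 higher in the infected triple mutant than in infected cbp60a, with a median of -2.04. None of 18 salicylic acid response markers, 8 camalexin genes, 13 jasmonate genes or 18 signalling genes reported as CBP60g and SARD1 targets was a member. In the same comparison, where 4.0% of all tested genes were lower and 9.95% higher, 6 of the 18 response markers and 2 of the 18 signalling genes were lower and 0 of either were higher, with medians of -1.15 and -0.30. Of the 13 jasmonate genes 8 were higher and 0 lower (median 1.19), and of the 8 camalexin genes 2 were higher and 1 lower (median 0.12), against a median of 0.08 over all tested genes.

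**Figure D3:**
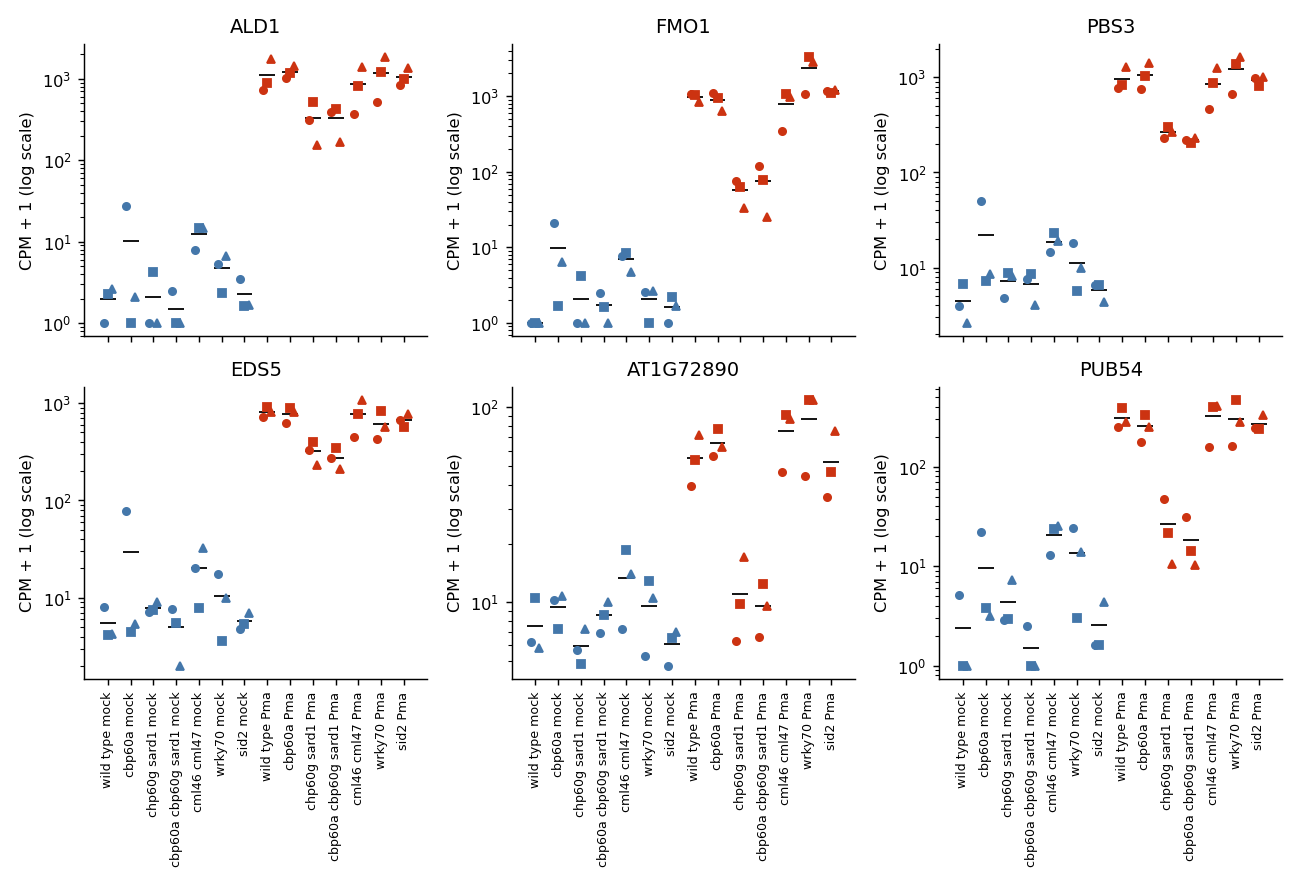
CPM + 1 (log scale) of 6 members in all 42 libraries, mock in blue and Pma in red, circles, squares and triangles for experiments 1, 2 and 3, bars for group means. In each panel the red points of chp60g sard1 and the triple mutant lie below those of wild type, cbp60a and sid2, and for AT1G72890 those of the triple mutant overlap its mock points.

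Members were sorted by hand into roles after their values had been seen: 92 genes in 10 roles, these 4 among them, and 76 without a role. The largest role was receptors, kinases and signalling, in which 10 of 16 tested genes were lower in the infected triple mutant, with a median of -1.15. For this and every role below, the same count was 69 of all 162 tested members and 4.0% of all tested genes. No role was tested against the other members.

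AT1G72890, annotated as a TIR-NBS disease resistance protein, held 55.3, 75.9 and 61.6 CPM in infected cbp60a and 5.64, 11.4 and 8.59 in the infected triple mutant. The groups were far apart, at -2.71 ± 0.31 (edgeR adjusted p = 4.93e-07). Its mock libraries in the triple mutant held 5.93, 7.64 and 9.07 CPM, in the range of the infected ones. PUB54, a member of the plant U-box family of ubiquitin ligases, went from 177, 329 and 251 CPM in infected cbp60a to 29.9, 13.2 and 9.16 (log2 fold change -3.66 ± 0.66, edgeR adjusted p = 0.000185). CRK37, a cysteine-rich receptor-like kinase, went from 106, 107 and 109.6 CPM to 31.01, 14.9 and 7.44 (-2.42 ± 0.44, edgeR adjusted p = 0.00018). For all 3 of these genes no triple mutant library reached the lowest cbp60a library.

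Also lower in this role were PFA-DSP1, an atypical dual-specificity phosphatase, at -2.46 ± 0.36, the receptor-like protein RLP20 at -3.30 ± 0.62, and AT3G61960, a protein kinase, at -1.03 ± 0.18. The brassinosteroid receptor homologue BRL1 (-1.57 ± 0.51), the extra-large G protein XLG2 (-0.91 ± 0.27) and the TIR-NBS-LRR gene AT5G58120 (-1.20 ± 0.25) were lower too. EBF2, an F-box protein of ethylene signalling, at -1.10 ± 0.43, and CRK13 at -0.41 ± 0.40 did not pass (edgeR adjusted p = 0.0879 and 0.566).

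Among the 3 members with the lowest adjusted p, AT1G72890 was joined by 2 genes with 3 counts each in the infected triple mutant. AT1G13310, annotated with a BRO1-like domain for endosomal targeting, held 19.8, 27.0 and 36.7 CPM in infected cbp60a and 0.564, 0 and 1.145 in the triple mutant. That is 125 against 3 counts, a ratio of 43.7 on column sums (95% interval 14.6 to 215, counting error only). The fit on TMM gave -5.0 ± 0.56 (edgeR adjusted p = 1.9e-07). AT1G65483, uncharacterized, held 64.1, 32.2 and 20.3 CPM against 1.69, 0 and 0. That is 177 against 3 counts, a ratio of 61.8 on column sums (20.8 to 303), and -5.54 ± 0.75 in the fit (edgeR adjusted p = 2.02e-06). AT3G57950 (-4.22 ± 0.61) and AT1G02470 (-2.82 ± 0.47), the latter overlapping another gene on its strand, were likewise among the 10 genes with the lowest adjusted p, as was the ABC transporter ABCC7 (-2.67 ± 0.44).

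Secreted and wall proteins had a median of -1.51, and 5 of 14 tested were lower. KTI1, a Kunitz trypsin inhibitor, held 1097, 1256 and 2012 CPM in infected cbp60a and 272, 337 and 119.6 in the triple mutant. These were apart, at -2.34 ± 0.65 (edgeR adjusted p = 0.0125). DESeq2 gave an adjusted p of 0.0735. In edgeR it was 0.306 without experiment 3, 0.119 without the triple mutant's library of that experiment and 0.0533 without the cbp60a library. The class V chitinase ChiC (-2.32 ± 0.58), the peroxidase PRX52 (-2.27 ± 0.61) and the subtilase SBT3.5 (-1.47 ± 0.38) were also lower. The chitinase CHI held 1222, 1089 and 1034 CPM against 671, 348 and 126, which did not overlap, but -1.54 ± 0.64 did not pass (edgeR adjusted p = 0.11), nor did PR4 at -0.54 ± 0.52 (adjusted p = 0.564).

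Transcription factors had a median of -1.17, and 3 of 9 were lower. These were NAP, a NAC factor that promotes leaf senescence (-1.79 ± 0.57), the membrane-tethered NTM1 (-1.51 ± 0.35) and NAC003 (-1.88 ± 0.51). WRKY75, which promotes senescence, was at -1.17 ± 0.46 and WRKY45 at -0.71 ± 0.33 (edgeR adjusted p = 0.0876 and 0.158). Of 8 genes of senescence and chlorophyll breakdown (median -0.99), 3 were lower: MES16, an esterase of chlorophyll catabolites (-1.37 ± 0.38), SAUR36 (-1.58 ± 0.39) and DIN2 (-2.67 ± 0.91). The 2 members with the highest CPM in infected wild type did not pass. SAG13, a senescence marker, held 2187, 2774 and 3341 CPM in infected cbp60a and 1475, 1429 and 487 in the triple mutant (-1.11 ± 0.60, edgeR adjusted p = 0.248). SAG21 held 2608, 1762 and 1977 against 2666, 822 and 442 (-0.72 ± 0.54, adjusted p = 0.438), and there the experiment 1 libraries were alike.

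Conjugating enzymes had a median of -0.85, and 3 of 7 were lower. UGT85A1, a glucosyltransferase that acts on cytokinins, held 1026, 839.5 and 1197 CPM in infected cbp60a and 404, 105 and 229.6 in the triple mutant. These were apart, at -1.89 ± 0.44 (edgeR adjusted p = 0.00282), with an adjusted p of 0.126 without experiment 2 and 0.0678 without experiment 3. UGT87A2 (-0.85 ± 0.28) and DFL1, which conjugates auxin to amino acids (-2.35 ± 0.60), were lower, and UGT74F2, which glucosylates salicylic acid, was at -0.56 ± 0.43 (edgeR adjusted p = 0.447). NCED5 of abscisic acid synthesis was lower (-2.13 ± 0.63) and AAO3, which makes abscisic acid from its aldehyde, was just above the threshold (-0.86 ± 0.30, adjusted p = 0.0518).

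Of 10 peroxisomal and amino acid enzymes 2 were lower, with a median of -0.77. These were ASP3, an aspartate aminotransferase (-0.85 ± 0.27), and the tyrosine aminotransferase homologue TAT7 (-1.20 ± 0.32). The thiolase PKT3 and the citrate synthases CSY2 and CSY3 were at -0.73 ± 0.28, -0.80 ± 0.29 and -0.34 ± 0.30 and did not pass. Of 13 transporters (median -0.93) 4 were lower: ABCC7, UMAMIT40 (-1.13 ± 0.36), AT3G21080 (-1.63 ± 0.49) and KAT1 (-0.91 ± 0.23, edgeR adjusted p = 0.00596, 0.068 without experiment 2). KAT1, a potassium channel of guard cells, was the only member among 3 guard cell markers, of which it made up most of the summed CPM. Of the other markers, FAMA was higher in the infected triple mutant, at 10.15, 19.3 and 12.0 CPM against 5.82, 8.32 and 9.60 in infected cbp60a, and MYB60 was at 2.29 CPM or less in every library of both groups. Of 7 cytochromes P450 and detoxification genes (median -1.0), NSP5, a nitrile specifier of glucosinolate breakdown, was lower (-1.40 ± 0.25, edgeR adjusted p = 0.000256).

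Among the 144 members with a mean of at least 10 CPM in infected cbp60a, the triple mutant kept 1.45% to 85.6% of the cbp60a level (median 43.6%). It kept under 50% in 99 genes and under 10% in 7, and in 0 did it exceed cbp60a. Infected chp60g sard1, used by the rule, kept 3.27% to 55.0% of wild type (median 38.2%).

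**Figure D4:**
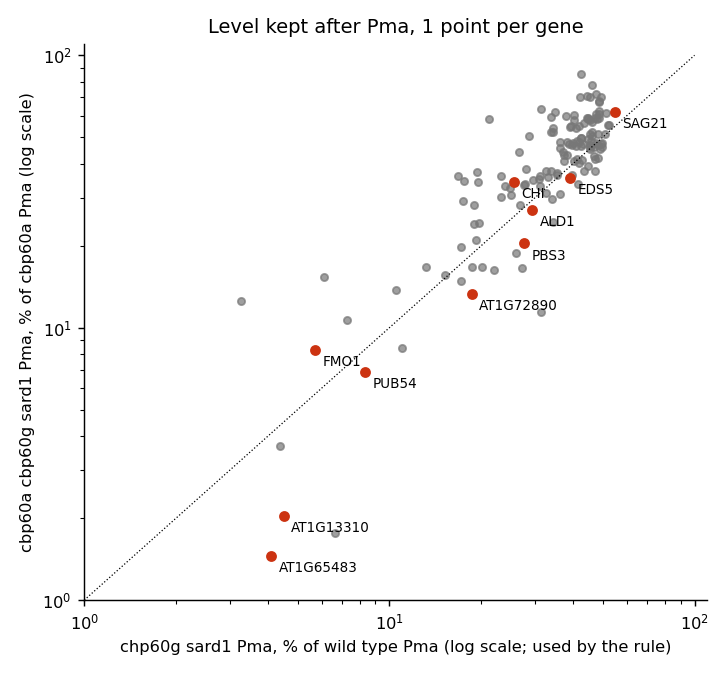
For each of 144 members, the infected triple mutant level as % of infected cbp60a (vertical, log scale) against the infected chp60g sard1 level as % of infected wild type (horizontal, log scale), with the line of equality and 10 members named. The rule limited the horizontal values through L, and the highest of them is 55.0%. It did not limit the vertical ones, of which AT1G65483 is lowest at 1.45%.

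Rising after Pma was retained in the other lines. In cbp60a 161 of the 162 tested members were higher in Pma than in mock (29.7% of all tested genes were), with a median of 3.58. In wrky70 160 were higher (29.3% of all), with a median of 4.05, and in cml46 cml47 158 (26.9% of all), with a median of 2.91. The median over all tested genes lay between -0.04 and -0.02 in these lines. All 3 Pma libraries lay above all 3 mock libraries in 160 members in cbp60a (37.3% of all tested genes), 158 in wrky70 (36.1%) and 155 in cml46 cml47 (35.2%). In edgeR and in DESeq2 0 members were lower in these lines, and 0 at an unadjusted p under 0.05, where 33.5%, 31.4% and 30.2% of all tested genes were lower. WRKY45 had the lowest adjusted p among members in each. It rose from 2.31, 0.698 and 0 CPM to 294, 239 and 265 in cbp60a (7.37 ± 0.52, edgeR adjusted p = 3.81e-13), and by 7.37 ± 0.48 in wrky70 and 6.29 ± 0.46 in cml46 cml47 (edgeR adjusted p = 7.8e-14 and 2.44e-12). AT3G63380, an E1-E2 type ATPase, was next, at 7.02 ± 0.62, 7.09 ± 0.57 and 5.55 ± 0.51. The member that did not pass in cbp60a was AT5G55460, annotated as a lipid-transfer type protein, with mock at 27.8, 16.8 and 5.44 CPM and Pma at 32.03, 27.0 and 32.8.

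In the triple mutant 135 of the 162 were still higher in Pma than in mock (27.8% of all tested genes were), with a median of 2.62 against -0.04 over all tested genes. None was lower in edgeR or DESeq2, 0 at an unadjusted p under 0.05 (30.5% of all tested genes were lower), and in 124 the libraries were apart (25.3%). WRKY45 went from 1.48, 1.91 and 1.01 CPM to 198, 121 and 98.5 (6.32 ± 0.50, edgeR adjusted p = 3.86e-12), and AT3G63380 rose by 6.27 ± 0.61. Most of these genes therefore still rose in a line mutated in CBP60G and SARD1, to a lower level.

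**Figure D5:**
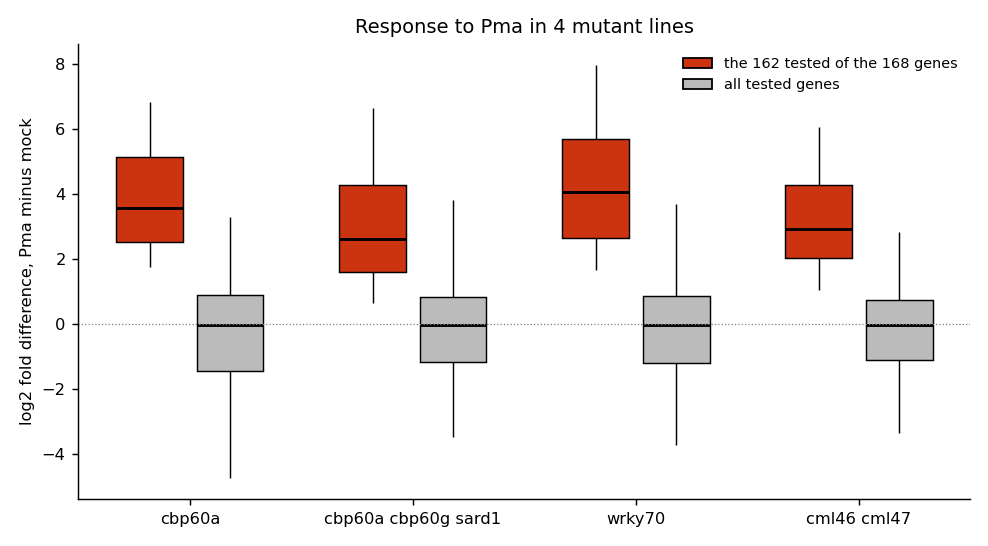
Log2 fold difference between Pma and mock in 4 lines that the rule did not use, for the 162 tested members (red) and all tested genes (grey). Lines mark medians, boxes quartiles and whiskers the 5th and 95th percentiles. The members' median is 3.58 in cbp60a, 4.05 in wrky70, 2.91 in cml46 cml47 and 2.62 in the triple mutant.

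The size of the response itself differed less clearly. Response of the triple mutant minus response of cbp60a was negative for 131 of 162 members, with a median of -0.73 (0.11 over all tested genes), but 6 passed as smaller and 0 as larger, where 0.455% and 3.33% of all tested genes did. For the 0, DESeq2 gave 0 as well. At an unadjusted edgeR p under 0.05, 33 members had a smaller response (3.87% of all tested genes) and 2 a larger one (12%). The 6 were AT1G72890 (-2.47 ± 0.47, edgeR adjusted p = 0.00325), AT3G61960 (-1.10 ± 0.26, adjusted p = 0.0139), AT1G53100, AT4G34180, FMN/FHY and NSP5. In AT1G72890 cbp60a went from 9.25, 6.28 and 9.79 CPM in mock to 55.3, 75.9 and 61.6, while the triple mutant's mock and Pma libraries overlapped. The count was 0 without experiment 2, without experiment 3 or without the experiment block, 13 without experiment 1, and between 1 and 8 when single libraries were left out. A difference in response is computed from the mock libraries of both lines as well as the infected ones. The cbp60a mock library of experiment 1 held PR1, a marker of salicylic acid response, at 692 CPM, against 10.5 and 12.0 in its other mock libraries, and FMO1 at 20.2 against 0.698 and 5.44. The fits without single libraries, which gave the 1 to 8 above, include a fit without this library. Its part in the result was not tested further.

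Of the other mutants, wrky70 was set against cbp60a after Pma, with the same cbp60a libraries as above. Of the 162 members 0 were lower in edgeR (1.73% of all tested genes were) and 0 in DESeq2, and leaving out the wrky70 library of experiment 2 gave 1. At an unadjusted edgeR p under 0.05, 2 were lower (6.4% of all tested genes) and 26 higher (11.8%). In the same comparison 56 of 294 tested genes low in both mutants and 19 of 76 tested genes low in sid2 only were lower. Higher in wrky70 were 6 members (2.45% of all tested genes were), and the median was 0.29 against 0.10. The libraries were apart with wrky70 lower in 5 members (7.24% of all tested genes) and with wrky70 higher in 16 (7.14%).

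DIN2, a beta-glucosidase induced in darkness and senescence, was at 50.8, 264 and 194 CPM in infected wrky70 and 12.2, 2.08 and 10.2 in cbp60a, without overlap (4.35 ± 0.63, edgeR adjusted p = 6.13e-05). GLYI4, a glyoxalase I homologue, followed at 2.27 ± 0.53 (adjusted p = 0.00975) and AT3G61390, a RING/U-box protein, at 2.08 ± 0.52 (adjusted p = 0.0168). NAC003 (1.71 ± 0.42), AT2G36780 (1.69 ± 0.45) and the sucrose carrier homologue SUC7 (2.54 ± 0.65) made up the 6. Experiment 1 differed from the rest: the wrky70 library held 2.75% of its counts in the members in experiment 1 and 4.96% and 5.10% in experiments 2 and 3. Without that library 15 members were higher, and the count was 2 or 3 without any single cbp60a library, 2 without the wrky70 library of experiment 3, 0 without experiment 2 and 1 without experiment 3.

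Infected cml46 cml47, again against the same cbp60a libraries, had 0 members lower in edgeR (0.0198% of all tested genes were) and 0 in DESeq2. At an unadjusted edgeR p under 0.05, 15 members were lower (4.18% of all tested genes) and 8 higher (8.86%). The median was -0.37 against 0.05 over all tested genes. The libraries were apart with cml46 cml47 lower in 16 members (3.03% of all tested genes) and higher in 11 (7.59%). Experiment 1 differed here too: the infected cml46 cml47 library held 1.91% of its counts in the members. In experiments 2 and 3 it was 3.25% and 3.32%. The part of the experiment 1 library in the median was not tested. A single member was higher (0.119% of all tested genes were): AT1G65483, at 205, 279 and 88.4 CPM against 64.1, 32.2 and 20.3, apart in all libraries (2.29 ± 0.46, edgeR adjusted p = 0.0222). It did not pass in any fit that left out an experiment or a cbp60a library, nor without the cml46 cml47 library of experiment 2 or the experiment block, with adjusted p from 0.062 to 0.476 in these.

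In mock leaves, cml46 cml47 was set against wrky70, since wild type mock had been used by the rule. A single member passed as higher (0.0726% of all tested genes did): CRK37, at 10.4, 33.9 and 32.3 CPM against 7.47, 1.98 and 5.06 (2.29 ± 0.50, edgeR adjusted p = 0.0482). With RLE scaling or without the block no member passed, with DESeq2 2 did, and leaving out an experiment or a library gave 0 to 7. The median was 0.32 against -0.01 over all tested genes, and the libraries were apart with cml46 cml47 higher in 24 members (8.5% of all tested genes) and lower in 2 (2.59%). PR1 stood at 326, 1348 and 752 CPM in cml46 cml47 mock and at 516, 7.93 and 63.5 in wrky70 mock, and its part in the difference was not tested.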

How the data were processed

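The deposited table held read counts per locus for 42 Smart-3SEQ libraries. Per the submitters' processing notes, bcl2fastq 2.17.1.14 and STAR 2.4.2a with TAIR10 were used, and per the labels' protocols reads begin with a 5-base molecular identifier. How reads were counted, with which annotation and strand setting, and whether the identifier was used, is not given in the sources used here, so counts of overlapping genes and near copies are uncertain. Intervals cover counting error only.

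The members, gene lists, roles and tests were chosen with earlier results of these data known. From the counts as deposited, edgeR 4.0.16 in R 4.3.3 (filterByExpr with min.count 10 and min.total.count 15, TMM, glmQLFit with legacy = FALSE, glmQLFTest) fitted 14 groups plus experiment terms (16 coefficients in all, leaving 26 residual degrees of freedom), so that experiment was a block. Standard errors (SE) were taken as the size of the log2 fold change over the root of its F value. CPM and ratios of counts are on column sums, log2 fold changes on TMM. The scales differ by 0.25 in log2 for the triple mutant against cbp60a and by 0.35 for cbp60a Pma against mock. Replicate numbers mark the experiments, and libraries of the same experiment deviated together (mean correlations 0.390, 0.372 and 0.139, 91 pairs each; -0.174 between experiments). Replicates differed beyond counting noise (chi-square per degree of freedom 3.38 to 38.5). The fit was also run on simulated data, in which only the infected triple mutant differed and experiments had no effect. That setting is simpler than these data, so no result here rests on it.

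Genes were named by rule: the 10 members with the lowest adjusted p in the triple mutant comparison, the 8 with the highest CPM in infected wild type, those in a list, in each other comparison up to 3 that passed against the counted direction and the 2 with the lowest adjusted p in it, 3 on each side of each threshold, and the mutated genes. Other genes named by role were chosen after their values were seen. Alternatives were RLE, no filter, no block, DESeq2 1.42.0, leaving out an experiment or a library, and other rule thresholds. Column sums in the fit and the count of members higher in wrky70 or cml46 cml47 were added after the data were seen. Symbols and sequences are from RefSeq TAIR10.1, in which 24701 loci were found.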

Additional observations from a re-analysis of the deposited data

Results flagged for a closer look

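A difference between genotypes in the response to Pma, tested by the interaction term in edgeR, marks 7 results. The number of members whose response differed between the triple mutant and cbp60a was 6. On the log2 scale the response of the triple mutant minus that of cbp60a was -2.47 for AT1G72890, -1.10 for AT3G61960, -4.34 for AT1G53100, -1.18 for AT4G34180, -1.0 for FMN/FHY and -1.27 for NSP5, each smaller in the triple mutant. AT1G53100 rests on 7 counts in the infected triple mutant libraries and 62 in infected cbp60a. NSP5 held 439, 562 and 561 CPM in infected cbp60a and 175, 239 and 93.3 in the infected triple mutant, with mock libraries of both lines between 30.4 and 50.3 CPM. With 3 libraries per group no single library could be marked as standing apart.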

How the results depend on the processing

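The count of 69 members lower in the triple mutant than in cbp60a was 69 with RLE, 78 without the filter, 46 without the replicate block, 72 with DESeq2 and 100 on column sums, and ran from 26 to 89 when an experiment or library was left out. The smaller response (6) was 3 without the filter, 0 without the replicate block and 10 on column sums, and ran from 0 to 13. Members higher in Pma than mock ran from 156 to 162 in cbp60a, 117 to 137 in the triple mutant, 155 to 163 in wrky70 and 141 to 161 in cml46 cml47. For wrky70 against cbp60a, lower ran from 0 to 1, and higher was 1 without the block and ran from 0 to 15. For cml46 cml47 against cbp60a, lower stayed at 0 in all alternatives, and higher was 0 without the block and with DESeq2, which gave that gene no adjusted p, and ran from 0 to 1. For cml46 cml47 against wrky70 in mock, the count was 0 with RLE, 0 without the block and 2 with DESeq2, and ran from 0 to 7. The number of members was 103 and 256 with sid2 thresholds of 0.3 and 0.8, 78 with a chp60g sard1 threshold of 1.5, 124 on TMM sizes, and 137 to 210 without an experiment. No sign changed in the 34 single gene results that were checked, all for genes named by rule. Across their alternatives, 433 outcomes were graded the same as the main fit, 48 weaker and 6 stronger. Genes named only by role were not part of this check. The causes were not tested.

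With libraries of 919335 to 2691069 counts, 23 members under 10 CPM in infected wild type had few counts, and near-zero mock levels widen the errors of response differences.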
